A study of Homo sapiens with 2 samples.

Results

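Interferon response and antigen presentation were described through 39 named genes in the established colorectal carcinoma line HCT116 after inhibition of the ATPase p97. The genes were taken by symbol from a list of RNA sensors, interferon-induced effectors, STAT and IRF transcription factors and components of the MHC class I pathway, and all 39 were among the 21115 genes with values. HCT116 cells had been kept for 8 h with 1 µM CB-5083, an inhibitor of p97, or for the same time with its solvent DMSO alone and both in McCoy's 5a medium with serum. A stranded mRNA kit gave 1 library per treatment, so there was no replicate, no test between treatments and no p-value. All intervals below are 95% exact (Clopper-Pearson) intervals on the estimated counts and cover counting error only. Pairs of values are given as DMSO against CB-5083.

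Interferons are secreted proteins that bind receptors at the cell surface and switch on STAT and IRF transcription factors. These factors bind response elements in the promoters of many antiviral genes and of genes for MHC class I antigen presentation. RIG-I (DDX58) and MDA5 (IFIH1) recognise viral RNA in the cytosol and induce interferon through the adaptor MAVS. In the class I pathway, proteasomes cut proteins into peptides, the TAP transporter carries the peptides into the endoplasmic reticulum (ER), and tapasin (TAPBP) with the chaperones calreticulin, ERp57 and calnexin helps to load them onto class I molecules. p97 pulls ubiquitinated proteins out of complexes and membranes, among them misfolded proteins of the ER.

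No member was called higher with CB-5083, and 4 were called lower: the RNA sensor gene IFIH1, the oligoadenylate synthetase gene OAS3, and TAP1 and TAPBP of peptide transport and loading. Levels are CPM (estimated counts scaled to a common library size, with TMM factors between the libraries), and a gene was called when its log2 ratio, with 1 CPM added to each value, was at least 1 in size and it reached 5 CPM in at least 1 library. Of the 39 members 20 reached 5 CPM, which leaves 16 without a call and 19 too low to be called. The plain CPM ratio of STAT2, one of the 16, was 2.04, and adding 1 CPM put it just under the threshold. Below, 'within 2-fold' means past the filter and not called. Among the 19 low members the plain ratio was 2.60 for OASL and 2.11 for ISG15. ERAP2 was 3.86-fold lower, IFITM1 8.68-fold on 10.3 against 1.02 counts, and OAS1 4.31-fold on 5 against 1 counts. The intervals of ISG15 and OAS1 hold a ratio of 1. Of all 9543 genes past this filter, 7.22% were called higher and 4.91% lower. On the scale of library totals 10.3% of genes were called lower and 3.86% higher, and the same 4 members were lower and none higher. By the authors' deposited log2 ratio, which has no pseudocount, 6.67% of genes were higher and 7.57% lower, again with no member higher and the same 4 lower. Some other settings moved the calls. With a pseudocount of 2 CPM 2 members were lower, and with a filter of 10 CPM 3 were. STAT2 was called higher with median-of-ratios scaling and with a pseudocount of 0.5 CPM. The median log2 ratio of the 30 members with a mean of at least 1 CPM was -0.13, against 0.04 for the 11964 genes with such a mean. Library totals moved that median of all genes by -0.31, and the members' median to -0.45. By the log2 ratio with 1 CPM added, 19 of these 30 members (63.3%) lay within 1.5-fold, and of all such genes 70.2%.

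The library totals were 29273514 (DMSO) and 31997539 (CB-5083) estimated counts. Where a gene is at 0, as many as 3 counts are allowed, or 0.0910 CPM (DMSO) and 0.106 CPM (CB-5083). Of 8 markers of colon epithelium 6 had a mean of at least 1 CPM, with a summed level of 1075 against 1604 CPM, while CDX1 was at 0 in both libraries and VIL1 at no more than 1 count. Markers of leukocytes summed to 1.54 and 2.21 CPM over 5 of 6 genes with a row, with PTPRC and CD3E at 0. Those of fibroblasts summed to 2.63 and 3.66 CPM, with COL1A2 and DCN at 0, and those of endothelium to 0.123 and 0.112 CPM, with CDH5 at 0. The strand setting of the counting was not given in the sources used, so reads of overlapping and antisense genes cannot be told apart. In a bulk library fewer cells with a transcript and less of it per cell cannot be told apart.

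**Figure D1:**
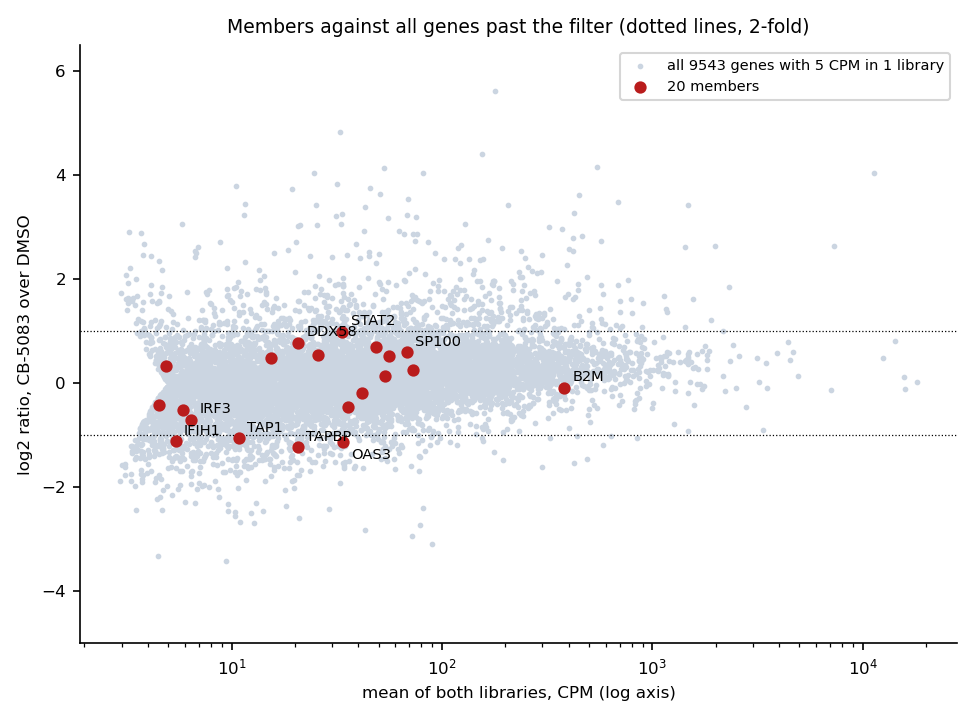
Log2 ratio of CB-5083 over DMSO against the mean of both libraries in CPM (log axis) for all 9543 genes with 5 CPM in 1 library (grey) and the 20 members among them (red). IFIH1, OAS3, TAP1 and TAPBP lie below the lower dotted line at 2-fold, and STAT2 lies just under the upper one.

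The promoters of the 4 lower members are shown with those of B2M and TAP2, whose transcripts stayed within 2-fold, because all 6 carry the letters of the interferon-stimulated response element, a DNA sequence bound by STAT and IRF factors. The element was searched on both strands as GAAA, any 2 bases and GAAA again, which reads TTTC, any 2 bases and TTTC on the other strand. The sequences are from RefSeq, build GRCh38.p14, and run 5′ to 3′ on the gene's strand over the 250 bases before its start site. Capitals mark the matches, which overlap where a run is longer than 10 bases.
IFIH1 (chr2:162318685-162318934, minus strand): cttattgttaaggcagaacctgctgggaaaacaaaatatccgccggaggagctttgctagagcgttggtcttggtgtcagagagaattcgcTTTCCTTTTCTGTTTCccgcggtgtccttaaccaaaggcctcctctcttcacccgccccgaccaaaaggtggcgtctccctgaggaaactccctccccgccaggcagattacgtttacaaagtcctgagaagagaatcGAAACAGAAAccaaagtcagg
OAS3 (chr12:112938224-112938473, plus strand): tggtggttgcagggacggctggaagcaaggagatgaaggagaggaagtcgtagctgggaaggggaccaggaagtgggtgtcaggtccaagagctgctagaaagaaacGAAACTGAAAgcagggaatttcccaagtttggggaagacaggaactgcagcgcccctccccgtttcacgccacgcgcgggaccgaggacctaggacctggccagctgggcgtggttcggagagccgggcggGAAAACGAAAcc
TAP1 (chr6:32853705-32853954, minus strand): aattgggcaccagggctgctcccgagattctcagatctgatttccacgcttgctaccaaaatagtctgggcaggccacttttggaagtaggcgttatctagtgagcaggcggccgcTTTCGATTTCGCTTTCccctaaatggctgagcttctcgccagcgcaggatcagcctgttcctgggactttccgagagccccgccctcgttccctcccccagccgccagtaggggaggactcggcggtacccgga
TAPBP (chr6:33314079-33314328, minus strand): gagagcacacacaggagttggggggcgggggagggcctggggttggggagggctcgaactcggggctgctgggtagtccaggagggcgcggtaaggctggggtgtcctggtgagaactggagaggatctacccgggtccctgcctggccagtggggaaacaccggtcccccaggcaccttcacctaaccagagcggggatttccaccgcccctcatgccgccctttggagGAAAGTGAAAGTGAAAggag
B2M (chr15:44711267-44711516, plus strand): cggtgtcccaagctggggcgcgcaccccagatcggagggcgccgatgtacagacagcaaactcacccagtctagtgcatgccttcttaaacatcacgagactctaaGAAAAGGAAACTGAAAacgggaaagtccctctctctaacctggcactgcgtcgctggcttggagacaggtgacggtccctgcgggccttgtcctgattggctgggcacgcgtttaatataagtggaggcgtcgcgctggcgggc
TAP2 (chr6:32838740-32838989, minus strand): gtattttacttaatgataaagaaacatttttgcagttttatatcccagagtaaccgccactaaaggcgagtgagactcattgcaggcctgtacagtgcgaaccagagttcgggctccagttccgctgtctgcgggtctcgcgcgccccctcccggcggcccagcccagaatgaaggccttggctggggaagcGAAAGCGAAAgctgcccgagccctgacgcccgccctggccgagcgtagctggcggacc

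In IFIH1 the matches began at positions -159, -153 and -21 from the start site, in OAS3 at -143 and -12, in TAP1 at -134 and -128 and in TAPBP at -20 and -14. B2M had overlapping matches at -144 and -138, and TAP2 had 1 at -58. Promoter windows of 300 bases (250 before and 50 after the start) were found for 29 members, and 18 of these (62.1%) held the letters, against 3.65% of the first-listed windows of 27305 genes. The members were chosen as interferon genes, so this share describes the list. The letters were in the windows of 4 of 4 lower members, 5 of 12 members within 2-fold and 9 of 13 members under 5 CPM. Only this exact spelling was searched, so a window without a match can still hold a close variant. Examples are gaaacgaaac in DDX58 and tttcacttct in HLA-B, both within 2-fold. These shares therefore do not show that the element is particular to the lower members. The gamma-activated site, which binds STAT dimers, was searched as TTCNNNGAA, which reads the same on both strands, and was in 6 of 29 member windows and in 7.88% of the windows of all genes. It was in none of the 4 lower members. For 8 of the 29 members RefSeq lists more than 1 start, and the first was used.

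The same letters were looked up for the whole table. Of 7636 genes past the filter with a window, 208 held the response element, of which 12 (5.77%) were called lower and 11 (5.29%) higher. These include 9 members and all 4 lower ones, and without members 8 of 199 (4.02%) were lower and 11 (5.53%) higher. Without it 4.29% of 7428 genes were called lower and 7.14% higher, and the median log2 ratio was 0.11 in both sets. A match is a description of letters in these windows and not of binding.

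**Figure D2:**
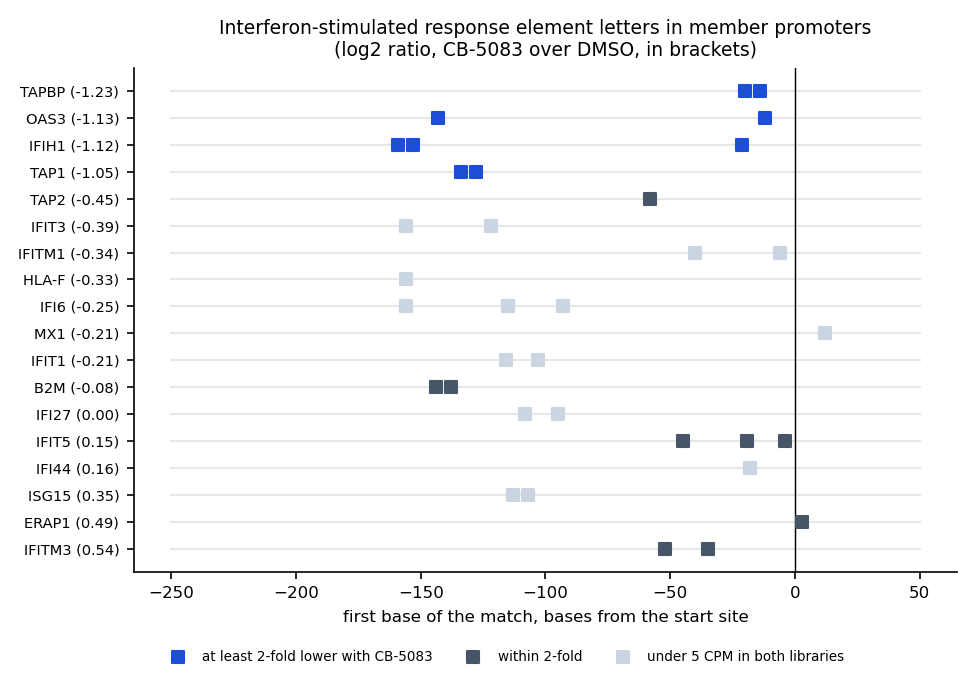
Position of each match to the response element in the windows of the 18 members that hold one (x axis, bases from the start site), ordered by log2 ratio, which stands in brackets. Among the members at least 2-fold lower (blue), IFIH1 and OAS3 have matches both near and far from the start, TAP1 far ones (-134 and -128) and TAPBP near ones (-20 and -14); B2M (dark grey, within 2-fold) has far ones at -144 and -138.

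Of the RNA sensors IFIH1 was called lower and DDX58 was not called. IFIH1, which encodes MDA5, the sensor of long double-stranded RNA, had 257 against 87.0 estimated counts, or 7.80 against 3.06 CPM. It lies on chromosome 2 from 163123589 to 163175039 (hg19). The level with CB-5083 was 2.55-fold lower (1.99 to 3.29), and only the DMSO library passed 5 CPM. DDX58, which encodes RIG-I, the sensor of short RNA ends, stood at 14.9 against 26.4 CPM. This was 1.77-fold higher (1.58 to 1.99) and within the 2-fold threshold.

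Of 15 other genes of nucleic acid sensing, adaptors and kinases 6 reached 5 CPM. Of these 1 was higher and none lower, beside 7.22% and 4.91% of all genes. The higher gene was TRIM25, which ubiquitinates RIG-I, at 174 against 438 CPM (2.52-fold higher, 2.44 to 2.60). Its log2 ratio of 1.33 became 0.985 on library totals, just under the threshold. MAVS was at 124 against 79.2 CPM, a log2 ratio of -0.64. MB21D1, which encodes the DNA sensor cGAS, was at 0 in both libraries, and IFI16, another DNA sensor, had 0 against 2 counts. TMEM173, which encodes the cGAS effector STING, was at 3.52 against 2.60 CPM.

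Of 10 listed interferon genes 4 had a row, and none reached 1 CPM. IFNB1, the type I interferon that RNA sensors induce first, had 0 against 1 count, and IFNA2 and IL29 had none in either library. IFNE, a type I interferon of epithelia, was detected at 0.637 against 0.774 CPM. The other 6 were not analysed here.

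All 9 receptor and kinase genes reached 5 CPM, with 1 higher, none lower and 8 within 2-fold, and their median log2 ratio was -0.01. The shares of all genes were 7.22% higher and 4.91% lower. The higher gene was JAK1, the kinase shared by the interferon receptors, at 112 against 257 CPM (2.30-fold, 2.21 to 2.39). Its log2 ratio of 1.19 became 0.85 on library totals. IFNAR1 and IFNAR2, the chains of the type I receptor, were at 77.8 against 61.1 CPM and at 14.04 against 8.00 CPM. IFNGR1, a chain of the interferon gamma receptor, was at 51.9 against 96.6 CPM, a log2 ratio of 0.88. On library totals 2 of the 9 were called lower, beside 10.3% of all genes. These were IFNAR2, whose log2 ratio of -0.74 became -1.05, and IL10RB, at -1.05. Their spans overlap on chromosome 21, so their counts are uncertain.

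STAT and IRF genes, 7 in all, included the closest approach to the upper threshold. STAT2, a transcription factor of the type I interferon response, had 728 against 1283 estimated counts, or 22.1 against 45.1 CPM. The CPM ratio was 2.04 (1.86 to 2.24). The log2 ratio with 1 CPM added was 0.998, under the threshold of 1, and 1.01 with median-of-ratios scaling. On library totals it was 0.67, and the authors' deposited table gives 0.94. IRF9, another factor of that response, was at 2.49 against 3.01 CPM, a ratio of 1.205 whose interval, 0.880 to 1.65, holds 1.

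STAT3, the factor of the interleukin-6 family, was at 37.1 against 60.6 CPM (1.63-fold higher, 1.52 to 1.76). Among the IRF genes IRF1, an early interferon gamma target, was at 4.20 against 5.54 CPM, a log2 ratio of 0.33. IRF3, the constitutive factor that MAVS activates, was at 8.20 against 4.67 CPM (1.76-fold lower, 1.42 to 2.18). Its log2 ratio of -0.70 was the next outside the lower threshold, and was -0.99 on library totals. IRF2, a repressor that competes with IRF1, was at 7.10 against 4.71 CPM, a log2 ratio of -0.50. IRF7, the inducible factor that amplifies type I interferon, had 4 estimated counts in each library. None of the 5 factors past the filter was called, and the median log2 ratio of the 6 measured factors was 0.26, and -0.0027 on library totals.

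**Figure D3:**
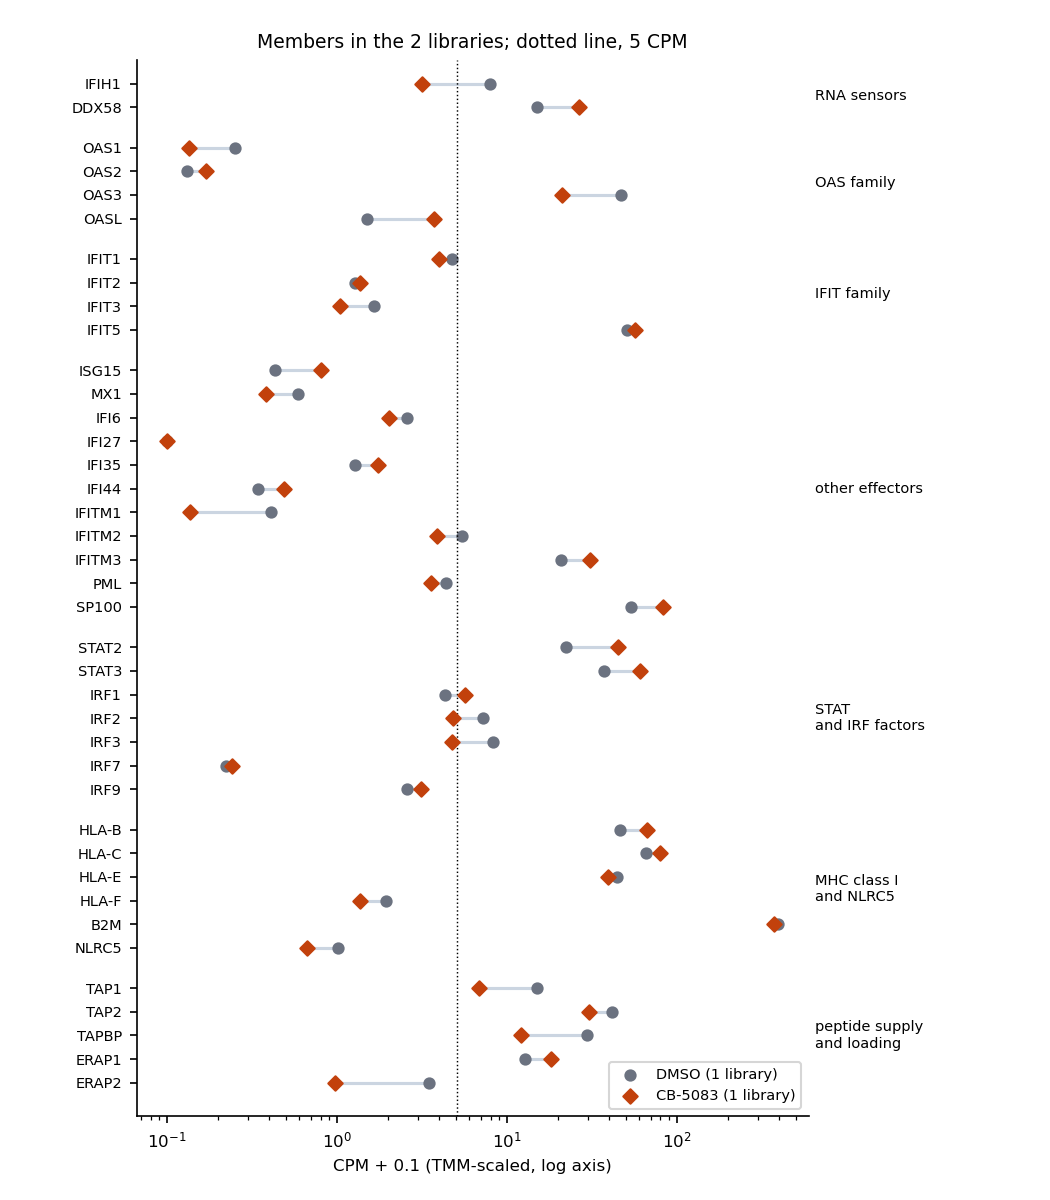
Level of each of the 39 members in the DMSO library (grey circle) and the CB-5083 library (orange diamond), as CPM + 0.1 on a log axis, grouped by role. Members right of the dotted line in at least 1 library reached 5 CPM, and IFI27 sits at the left edge because it was at 0 in both.

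The oligoadenylate synthetases, which make the second messenger that activates RNase L, had 1 well expressed member, OAS3. OAS3, on chromosome 12 from 113376249 to 113411054 (hg19), had 1547 against 595 estimated counts, or 46.9 against 20.9 CPM, and was 2.24-fold lower (2.04 to 2.47). OAS1 had 5 against 1 counts and OAS2 1 against 1.99. OASL, which lacks the synthetase activity and acts on RIG-I, was at 1.40 against 3.62 CPM. Its ratio was 2.60 (1.82 to 3.76), under the filter, with a log2 ratio of 0.95 and of 1.29 in the authors' deposited table, which adds no pseudocount. Per kilobase of transcript OAS3 was at 6.99 CPM per kb with DMSO, against 0.587 for OASL and 0.0835 for OAS1.

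The IFIT genes encode proteins that bind viral RNA ends, and 1 of 4 reached 5 CPM. IFIT5 was at 50.9 against 56.5 CPM, 1.11-fold higher (1.04 to 1.19). IFIT1 was at 4.64 against 3.87 CPM and IFIT2 at 1.18 against 1.27 CPM, and both intervals hold a ratio of 1. IFIT3, which stabilises IFIT1, was at 1.55 against 0.939 CPM, a ratio of 0.606 (0.365 to 0.987) on 51.1 and 26.7 counts. IFIT2 and IFIT5 turned to log2 ratios of -0.13 and -0.19 on library totals. On that scale all 4 IFIT genes had log2 ratios below 0.

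Of 11 other induced effectors 3 reached 5 CPM in at least 1 library, and none was called. SP100, an organiser of nuclear bodies, was at 53.8 against 82.1 CPM (1.53-fold higher, 1.43 to 1.62). Its partner PML, the scaffold of these bodies, was at 4.27 against 3.48 CPM, and the interval of its ratio, 0.623 to 1.06, holds 1. IFITM3, which blocks virus entry at endosomes, was at 20.8 against 30.7 CPM (1.48-fold, 1.34 to 1.64). IFITM2 was at 5.32 against 3.76 CPM, and IFITM1 had 10.3 and 1.02 counts. The IFITM genes share sequence with each other, so their counts are uncertain, and none was called.

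Several classical interferon-induced effectors were close to absent in both libraries. ISG15, a ubiquitin-like modifier, had 11 against 20 counts, a ratio of 2.11 (0.963 to 4.87). MX1, a GTPase against influenza virus, had 16 against 8 counts, a ratio of 0.580 (0.215 to 1.44). IFI44 had 8.07 against 11 counts, and IFI27 none in either library. IFI6, an inhibitor of apoptosis, was at 2.49 against 1.94 CPM and IFI35 at 1.18 against 1.65 CPM, and the intervals of both ratios hold 1. In all, 9 of 39 members had a mean under 1 CPM, and the interval held a ratio of 1 for 13 of the 37 members with a ratio. For those 13 a difference was not detectable at this depth.

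Of 35 other induced effectors, a list that holds no member, 21 passed the filter. TRIM5, a restriction factor of retroviruses, was the 1 called higher, at 19.2 against 47.5 CPM (2.48-fold, 2.25 to 2.73). Its log2 ratio of 1.27 became 0.93 on library totals, and its span in the files overlaps other genes, so its count is uncertain. None was called lower, although 4 were on library totals (TRIM21, ZC3HAV1, PARP9 and LGALS3BP), where 10.3% of all genes were. With TMM scaling 7.22% of all genes were called higher and 4.91% lower. The median log2 ratio of the 22 measured effectors was -0.26. ADAR, which edits double-stranded RNA, was at 273 against 301 CPM. GBP3, a guanylate-binding protein, was at 0.364 against 2.22 CPM on 12 and 63 counts, under the filter, with a ratio of 6.09 (3.25 to 12.4). CMPK2, also under the filter, went the other way, on 48 and 15 counts. Its ratio was 0.362 (0.188 to 0.658). Feedback inhibitors gave no call among the 6 of 9 past the filter. PTPN11, a phosphatase, was at 475 against 642 CPM, with USP18, the ISG15 protease, at 5.58 against 4.01 CPM and SOCS3 at 7.43 against 12.9 CPM.

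**Figure D4:**
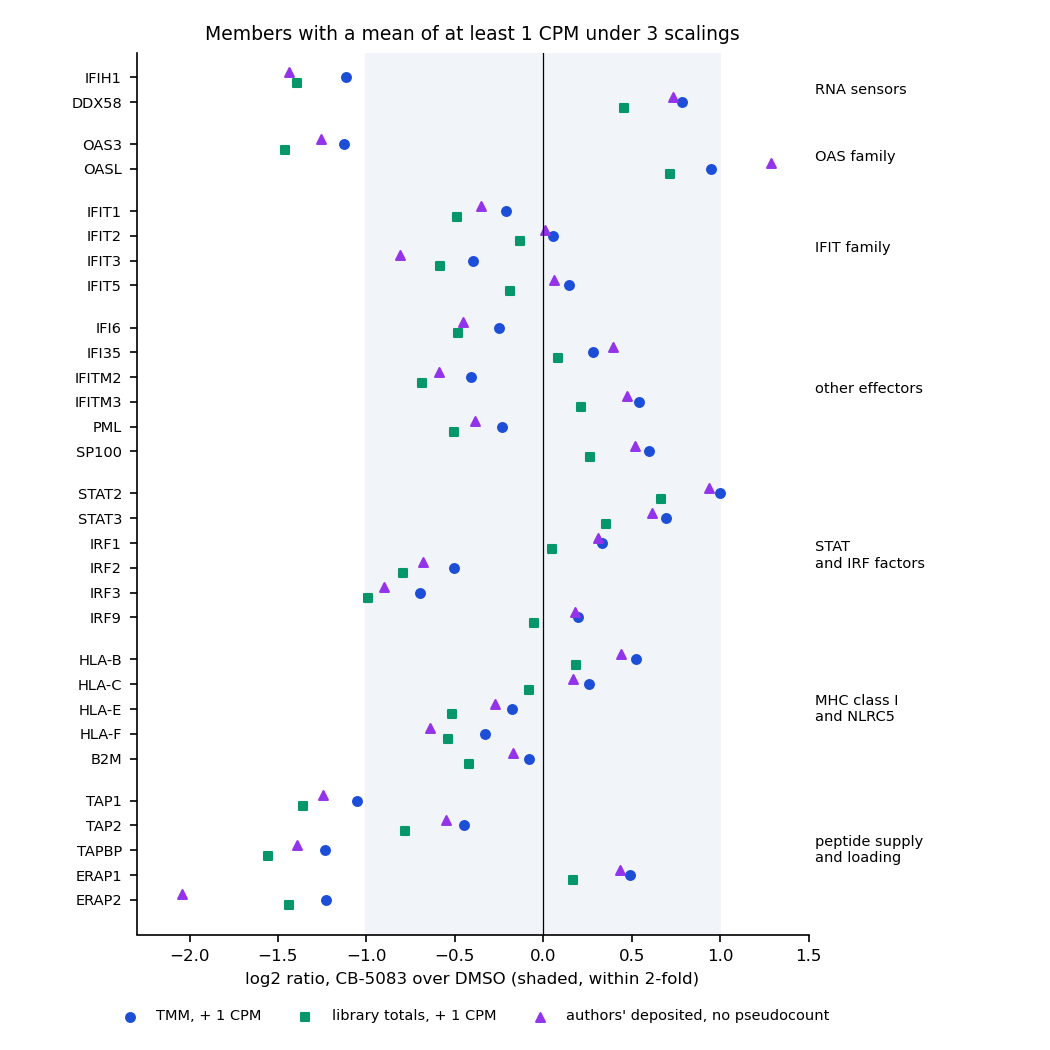
Log2 ratio of CB-5083 over DMSO for the 30 members with a mean of at least 1 CPM, with TMM scaling (circles), library totals (squares) and as deposited by the authors (triangles). IFIH1, OAS3, TAP1, TAPBP and ERAP2 lie beyond 2-fold (outside the shading) on the lower side under all 3, ERAP2 with under 5 CPM in both libraries; OASL lies beyond the upper side in the authors' values alone (1.29), and HLA-C, IFIT2, IFIT5 and IRF9 cross 0 on library totals.

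Class I molecules themselves were little different between the libraries. B2M, the invariant light chain, had 12943 against 10548 estimated counts, or 393 against 371 CPM, a ratio of 0.945 (0.921 to 0.970). Per kilobase it was at 416 CPM per kb with DMSO, above HLA-C at 43.0, HLA-B at 29.8 and HLA-E at 17.1. HLA-B was at 46.1 against 66.6 CPM (1.45-fold higher, 1.35 to 1.55), HLA-C at 66.02 against 79.05 CPM (1.197-fold, 1.13 to 1.27). HLA-E was at 44.6 against 39.2 CPM, a ratio of 0.881 (0.814 to 0.952). HLA-F was at 1.85 against 1.27 CPM. The HLA genes share sequence with each other and are placed on several alternate contigs of chromosome 6 in the files, so their counts are uncertain. NLRC5, the transactivator of class I genes, had 30 against 16 counts, a ratio of 0.618 (0.315 to 1.17). None of the 4 class I genes past the filter was called, and HLA-C turned to a log2 ratio of -0.08 on library totals.

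Peptide transport and loading held 2 of the 4 lower members and, among the classes with a median, the lowest one, -1.05 over 5 genes. RNA sensors and the OAS family had 2 measured genes each and were given no median. The value of -1.05 is that of TAP1, the middle gene. It was -0.75 with a mean of at least 5 CPM required, which leaves out ERAP2. TAP1, a subunit of the TAP transporter on chromosome 6 from 32812986 to 32821748 (hg19), had 494 against 191 estimated counts. At 15.0 against 6.72 CPM it was 2.23-fold lower (1.88 to 2.65), the called member nearest to the threshold at a log2 ratio of -1.05. TAP2, the other subunit, was at 41.4 against 30.1 CPM, a ratio of 0.727 (0.667 to 0.793) within the threshold. TAPBP, or tapasin, which bridges TAP and the class I molecule, lies on chromosome 6 from 33267472 to 33282164 and had 968 and 339 counts. At 29.4 against 11.9 CPM it was 2.46-fold lower (2.17 to 2.79). TAP1 and TAPBP were thus called lower and TAP2 was not. On library totals the log2 ratio of TAP2 was -0.78, that of TAP1 -1.36 and that of TAPBP -1.55.

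The ER aminopeptidases, which trim peptides for class I, gave no call. ERAP1 was at 12.6 against 18.1 CPM (1.44-fold higher, 1.26 to 1.64). ERAP2 had 112 against 25 counts, or 3.40 against 0.880 CPM, and was 3.86-fold lower (2.49 to 6.22). Its interval overlaps those of IFIH1, TAP1 and TAPBP, and it stayed under 5 CPM. With a filter of 1 CPM, 5 members of 30 were lower, ERAP2 among them, beside 5.29% of all genes, and none was higher, beside 6.09%.

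Other parts of the loading machinery were higher. CALR, calreticulin, was at 307 against 1223 CPM (3.99-fold, 3.90 to 4.08), PDIA3, which encodes ERp57, at 764 against 2363 CPM (3.09-fold, 3.05 to 3.14) and CANX, calnexin, at 1442 against 2914 CPM (2.02-fold, 1.998 to 2.04). The log2 ratio of CANX, 1.01, became 0.92 with upper quartile scaling and 0.67 on library totals. These chaperones serve glycoprotein folding in general. They were the only 3 called genes among the 13 past the filter of 19 genes of the immunoproteasome, the loading chaperones and the class I promoter factors. The share of all genes called higher was 7.22%, and lower 4.91%. PSMB9, an immunoproteasome subunit whose gene lies head to head with TAP1, had 35 against 16 counts, a ratio of 0.530 (0.274 to 0.983). PSMB10 was at 4.31 against 2.46 CPM and PSMB8 had 1 against 2 counts. PSME1 and PSME2, activators of the proteasome, were at 68.4 against 83.7 CPM and 63.3 against 69.4 CPM.

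**Figure D5:**
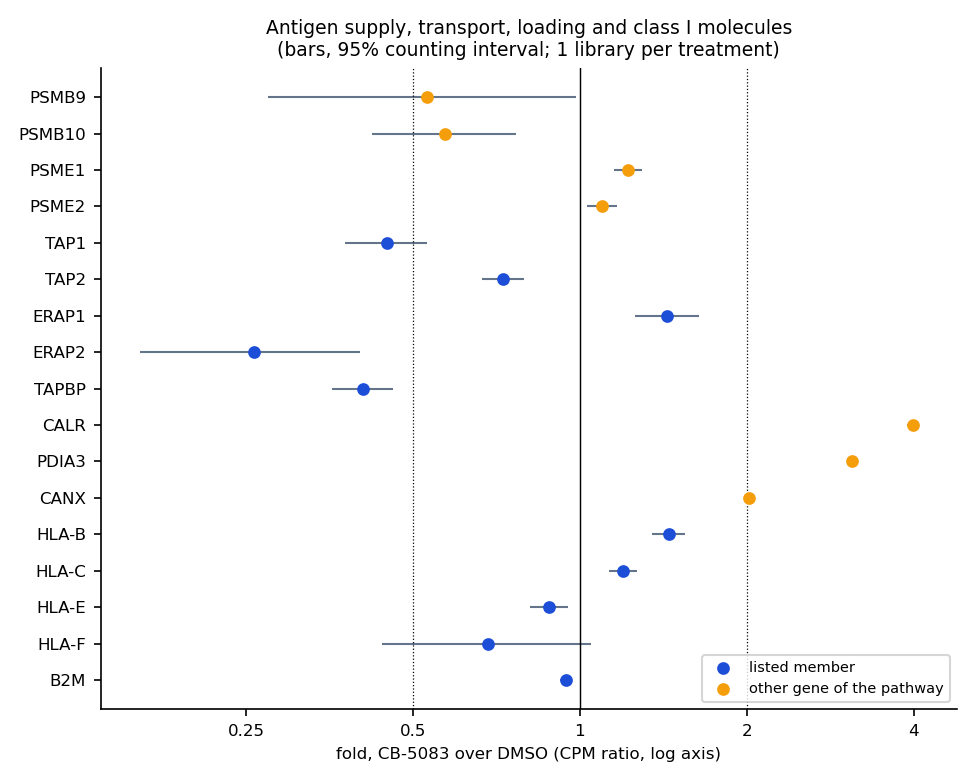
Fold of CB-5083 over DMSO (CPM ratio, log axis) with the 95% counting interval for genes of the class I pathway, ordered from peptide supply to the class I molecules, with members in blue and other genes in orange. TAP1, ERAP2 and TAPBP lie left of 0.5, CALR, PDIA3 and CANX lie right of 2, and the class I molecules lie between.

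Of 11 genes of MHC class II presentation 1 passed the filter. It was IFI30, an interferon-inducible thiol reductase of lysosomes, at 14.6 against 6.47 CPM (2.25-fold lower, 1.90 to 2.69). CIITA, the class II transactivator, had 0 against 1.99 counts. Over all 8 pathway lists 62 of 120 genes passed the filter, of which 7 were called higher, 1 lower and 54 neither, beside 7.22% and 4.91% of all genes. On library totals the balance was the opposite, with 2 higher (CALR and PDIA3) and 7 lower, beside 3.86% and 10.3% of all genes. At 1.5-fold, 4 of the 20 members past the filter were higher (DDX58, SP100, STAT2 and STAT3) beside 17.4% of all genes, and 5 were lower (IRF3 and the 4 named) beside 12.5%.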

How the data were processed

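HCT116 cells gave 1 DMSO and 1 CB-5083 library. RSEM 1.2.0 and the build hg19 come from the submitters' processing notes; the aligner was not given in the sources used here. Each deposited column holds a signal: RSEM estimates which the authors had put on a scale with the 75th percentile near 1000 (999.7 and 999.9, from the values). The intervals had been planned on estimated counts, so the signal was first divided by the value of 1 count (1.079 and 1.175). Of the results above 0, 53.1% and 54.9% were whole within 0.02. The series table adds the authors' deposited log2 ratio, a number for 16034 genes. Of 21116 rows, 1 had no value and was left out.

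TMM factors were 1.126 and 0.888 (trims of 30% on ratios and 5% on means), and 1 CPM was added before log2. Gene spans are the files' own, with starts counted from 1. Transcript lengths (GENCODE release 29) were found for 35 members. Every member is named. From each other list the rule names the genes past 2-fold (up to 4) and the most expressed one, and the members next to the threshold. Other genes of the lists named in the text, such as MAVS, IFNAR1, GBP3 and PSMB9, were chosen after their values were seen. Members and lists were chosen with earlier results of these data known. Alternatives covered scaling, pseudocount, filter, fold and source of the ratio. The promoter counts without members were added after seeing the data. Some genes of the other lists are not reported here by name but count in their lists. Scripts were tested on simulated data. They ran in Python 3.11.15 with scipy 1.17.1, matplotlib 3.10.9, pandas 2.3.3 and numpy 2.4.6.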

Additional observations from a re-analysis of the deposited data

How the results depend on the processing

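With 1 library per treatment no spread between cultures is known, and no library could be left out. No paired analysis was possible because each group is 1 library. The 4 lower members had ratios below 1 under every scaling, pseudocount and source of the ratio run, but pseudocounts of 2 CPM left 2 of them past 2-fold (OAS3 and TAPBP), so that RNA sensors had 0 lower and peptide loading 1, with a class median of -0.91. The filter of 10 CPM also left 0 lower RNA sensors, since IFIH1 was under it, and gave a loading median of -0.75. STAT2 passed 2-fold with median-of-ratios scaling and with a pseudocount of 0.5 CPM, which gave 1 higher member and 1 higher STAT or IRF gene each. At 1.5-fold 4 members were higher, 1 sensor, 1 other effector and 2 STAT or IRF genes, and 1 STAT or IRF gene was lower.

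On library totals the median of the members was -0.45, of STAT and IRF members -0.0027, of class I molecules -0.42, of receptors and kinases -0.33, of sensing genes -0.58, of feedback genes -0.47, of the other listed effectors -0.62, of the immunoproteasome and loading list -0.016 and of all genes -0.28. The class I median was -0.17 with upper quartile scaling and with the authors' deposited ratio, -0.13 without a filter and 0.087 with the higher filter. Higher genes among receptors, sensing genes, other STAT and IRF genes and other effectors were 0 each on library totals, and other STAT and IRF genes also 0 with upper quartile scaling. Over all pathway lists 2 genes were higher and 7 lower on library totals. Lower genes were then 2 among receptors and 4 among other effectors. At 1.5-fold receptors gave 2 higher and 2 lower, sensing genes 2 lower, feedback genes 1 higher and other effectors 2 higher and 5 lower. Other effectors gave 2 higher at 1 CPM, 1 lower with the authors' ratio and a median of -0.067 without a filter. Feedback genes had a median of 0.43 with the higher filter, the immunoproteasome list 0.13 without one, and MHC class II 0 lower with a pseudocount of 2 CPM. Over all genes the calls were 371 higher and 994 lower on library totals, 1660 and 1195 at 1.5-fold, and 722 lower with the authors' ratio. The median of all genes was -0.047 with upper quartile scaling, -0.051 with the authors' ratio and 0.11 with the higher filter. Apart from the effect of fewer or more genes under a filter or threshold, the cause was not tested. Members under 5 CPM could not be called, and depth limits those whose interval holds a ratio of 1. For OASL, ERAP2, IFIT3 and IFITM1, also under 5 CPM, the interval excluded a ratio of 1.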
